A study of Rattus norvegicus with 6 samples.

Results

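The genes described here are the ligands of the tumor necrosis factor (TNF) superfamily and the receptors that bind them. They were chosen by gene symbol, with earlier results of these data known. The rule took all rows named Tnfsf or Tnfrsf followed by a number. To these it added Tnf, Lta, Ltb, Ltbr, Fas, Faslg, Cd40, Cd40lg, Cd27, Cd70, Eda, Edar, Eda2r and Ngfr. The choice gave 44 of the 17771 listed genes, 18 of them ligands and 26 receptors. Corneas from SD rats were grafted onto Wistar rats, a rat model of corneal allograft rejection, and the recipients were injected intraperitoneally every day with resveratrol, a plant polyphenol, or with saline as the control. Corneal RNA was sequenced at day 7 after surgery, in 3 control and 3 resveratrol libraries with 35068936 to 37460756 gene counts each. All 6 libraries therefore come from grafted eyes, with no ungrafted cornea and no graft within a strain for comparison. Whether each library is a separate animal is not stated, so p-values measure the spread between these libraries, which may be technical.

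TNF superfamily ligands are mostly membrane proteins that act as trimers on neighbouring cells or are shed into the tissue fluid by proteases. Their receptors cluster on binding. Receptors with a death domain recruit adaptors that can start apoptosis or necroptosis, most others bind TRAF adaptors and activate NF-kB and MAP kinases, and a few are decoys that capture ligand without signaling. In the cornea the family is known above all for Fas ligand, whose expression in the eye removes Fas-bearing inflammatory cells and contributes to immune privilege.

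Levels of different genes were compared in FPKM, the deposited reads per length and depth. Among ligands the highest mean over the 6 libraries was that of Tnfsf12, which encodes TWEAK, at 8.41 FPKM (range 5.21 to 12.5). Tnfsf13, which encodes the B cell survival factor APRIL, followed at 6.39 FPKM (4.77 to 9.78). Both ranges overlapped. Eda, the ectodysplasin of skin appendage development, came next at 3.14 FPKM (2.90 to 3.60), below every library of Tnfsf13. Ltb, Tnfsf11, Tnfsf9, Tnf and Tnfsf10 had means from 1.97 down to 0.557 FPKM, each overlapping its neighbour in the order, and the other 10 ligands stayed under 1 FPKM in all 6 libraries. Faslg had the lowest mean, 0.0124 FPKM, in a range that overlapped that of Cd70. Faslg had 2 to 7 counts in each library and 26 in all, while Cd70 had 3 and Lta, Cd40lg and Tnfsf8 had 9 each. Its place below them holds in FPKM, a measure per length, and not in counts.

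Receptors stood at higher levels. Tnfrsf1a, the death domain receptor for TNF, had the highest mean of 85.2 FPKM (75.0 to 101), followed by Ltbr, the lymphotoxin beta receptor, at 62.6 FPKM (59.0 to 69.2), and Tnfrsf21, a death domain receptor expressed in neurons and epithelia, at 47.8 FPKM (40.2 to 56.6). Tnfrsf12a, the receptor for TWEAK, came after them at 29.8 FPKM (16.2 to 39.4). Each of these 4 lay apart from the one before it in the order, with no overlap of their ranges. Ngfr, the low-affinity neurotrophin receptor, was at 9.26 FPKM and its range of 4.89 to 17.0 touched that of Tnfrsf12a. Together the 4 highest receptors held 84.7% to 87.7% of the summed receptor FPKM in a library, and the 2 highest ligands held 54.9% to 66.4% of the summed ligand FPKM. Of the receptors, 12 were over 1 FPKM in all 6 libraries and 11 were under it in all 6.

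**Figure D1:**
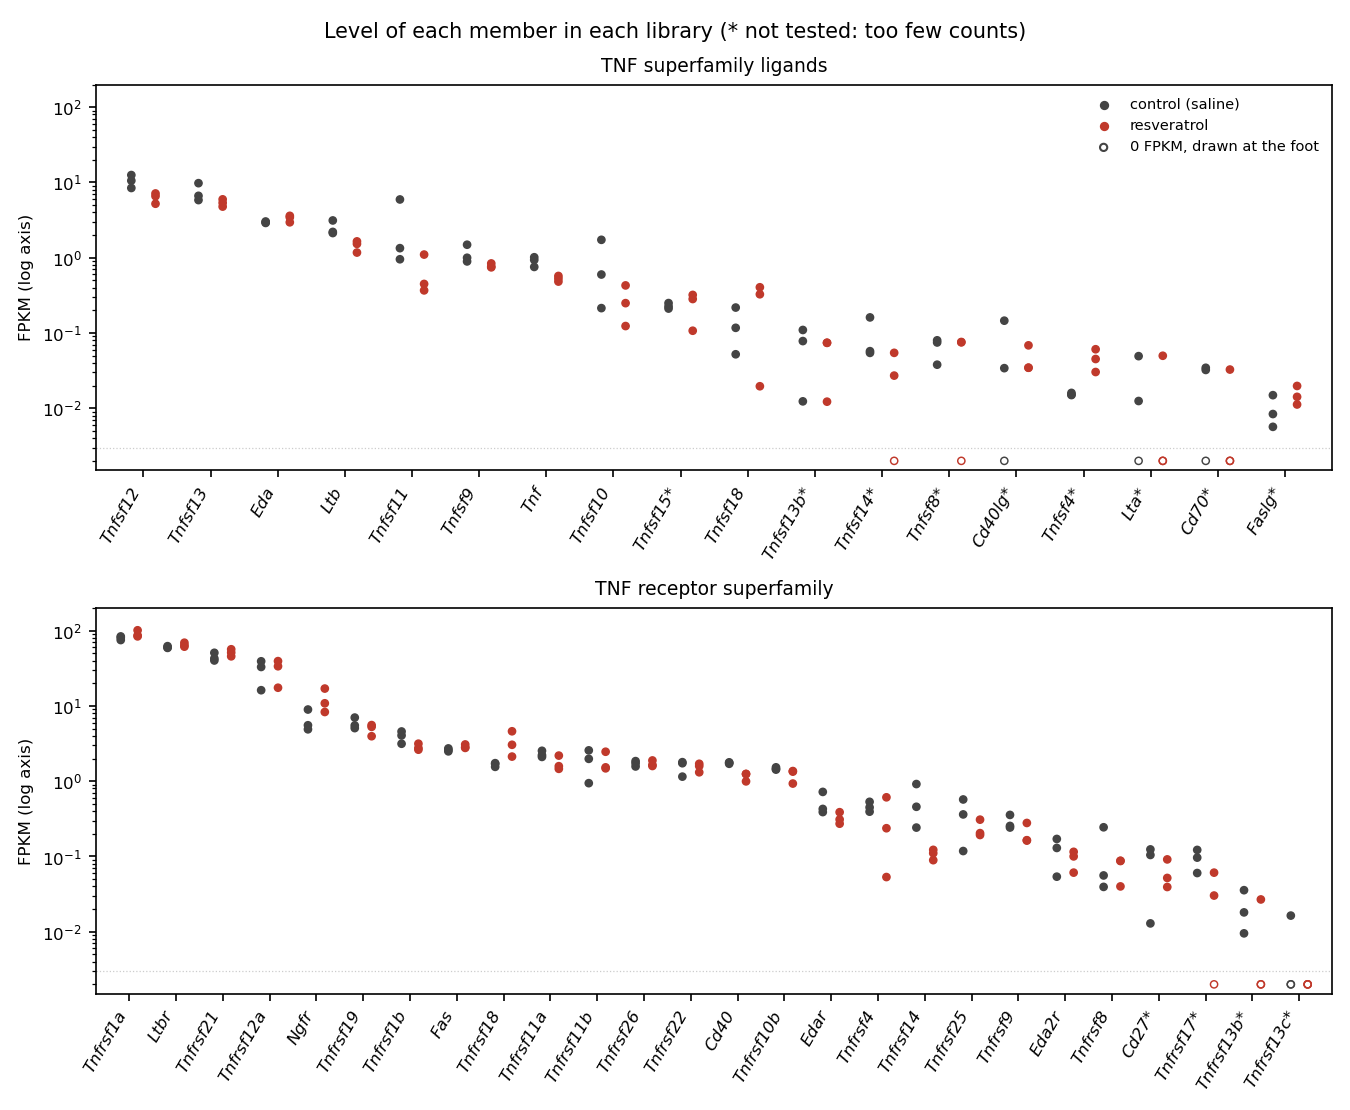
Level of each of the 44 genes in each of the 6 libraries, in FPKM on a log axis, with ligands and receptors in separate panels and colors for control and resveratrol. Tnfrsf1a, Ltbr, Tnfrsf21 and Tnfrsf12a lie above all ligands in every library, and genes marked with an asterisk had too few counts to be tested.

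After a filter on low counts, 14213 genes were tested between resveratrol and control, among them 9 ligands and 22 receptors. No gene of the 14213 passed an adjusted p of 0.05 by edgeR's quasi-likelihood test (0% called), and the smallest adjusted p was 0.1002. Neither did any ligand or receptor, the smallest adjusted p among them being 0.125. The descriptions of lower and higher values below are therefore of genes that did not pass this test. At an unadjusted p under 0.05 there were 4 ligands and 3 receptors with lower values in resveratrol, beside 11.7% of all genes tested, and 0 ligands and 2 receptors with higher values, beside 7.84% of all genes. These are 9 members in either direction, beside 19.6% of all genes. The 4 lower ligands became 2 without control 1, resveratrol 1 or resveratrol 2, and in the 4 libraries whose descriptions end in Oct. The 2 higher receptors became 1 without control 1, control 2 or resveratrol 1, and the 3 lower receptors became 2 in the smallest such count. DESeq2, run beside edgeR, called 680 genes lower (4.64% of 14666) and 327 higher (2.23%). Its calls in the family were Tnfsf12 and Tnfrsf14 lower and Tnfrsf18 higher.

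Fitted differences lay below 0 for 7 of the 9 tested ligands and for 15 of the 22 tested receptors, beside 51.2% of all tested genes. The median log2 fold change was -0.76 over the tested ligands, -0.28 over the tested receptors and -0.01 over all tested genes. The medians cover the tested members alone, and 9 ligands and 4 receptors had too few counts to enter them. Groups did not overlap in CPM, with all resveratrol libraries lower, for 4 ligands and 4 receptors, beside 14.4% of all tested genes. They did not overlap with all resveratrol libraries higher for 0 ligands and 1 receptor, beside 12.2%. The other 5 ligands and 17 receptors overlapped.

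**Figure D2:**
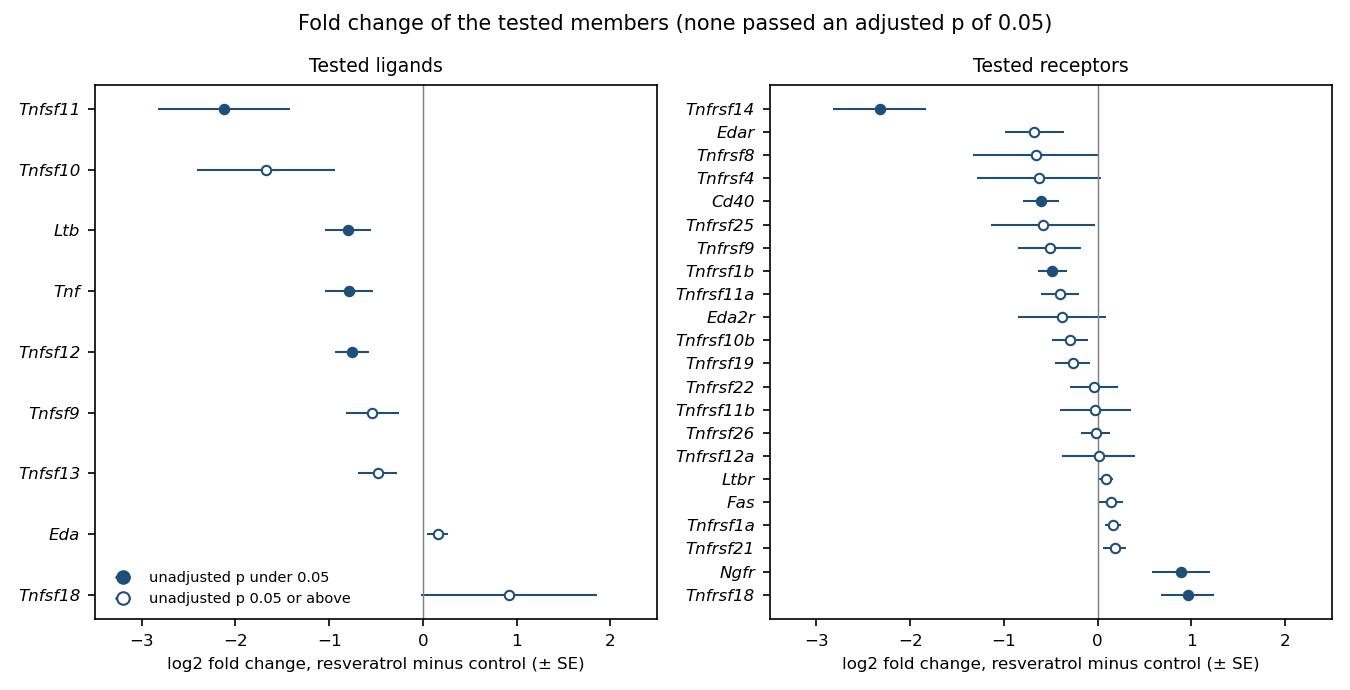
Fitted log2 fold change of each tested ligand and receptor, resveratrol minus control, with its standard error, and filled points for an unadjusted p under 0.05. Of the 9 ligands, 7 lie left of 0, while the 22 receptors run from -2.33 for Tnfrsf14 to 0.96 for Tnfrsf18 with 15 of them below 0.

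**Figure D3:**
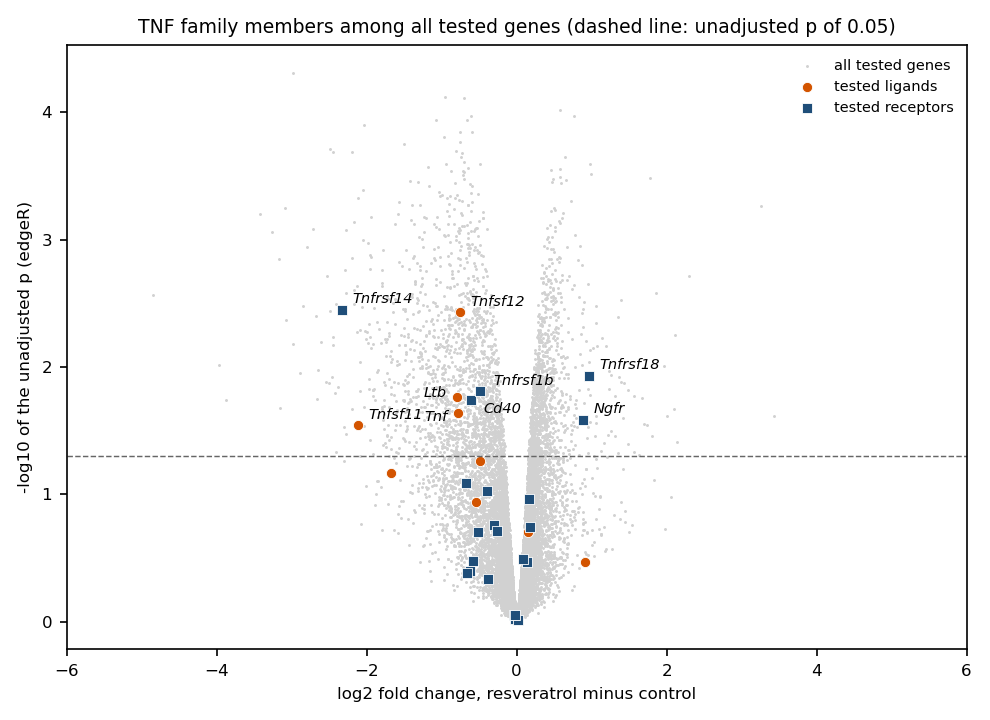
Log2 fold change and -log10 of the unadjusted edgeR p of every tested gene (grey) with the tested ligands and receptors in color, and a dashed line at an unadjusted p of 0.05. The 9 labelled family genes above the line lie within the cloud of other genes, and none passed an adjusted p of 0.05.

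Of the ligands, Tnfsf12 had the smallest p. TWEAK is made largely by macrophages and other leukocytes and acts on epithelium, endothelium and fibroblasts. Its CPM, library counts scaled to a common total after adjustment for composition, was 19.4, 16.3 and 13.0 in control and 8.17, 10.9 and 9.85 in resveratrol. Every control library was above every resveratrol library. The log2 fold change was -0.76 ± 0.18 (SE), with an edgeR adjusted p of 0.125 and a DESeq2 adjusted p of 0.00914. DESeq2 no longer called it without control 1 (adjusted p = 0.0810), control 2 (0.0793) or resveratrol 1 (0.0764), nor in the Oct libraries alone (0.261), where edgeR's log2 fold change was -0.50. In the RefSeq annotation of the rat assembly GRCr8, Tnfsf12 and Tnfsf13 are neighbours and both overlap Eif4a1l. The sources used here do not say whether reads were counted by strand, so reads of overlapping genes cannot be told apart in these 2 ligands. In all, 12 family genes overlap another gene in GRCr8 and share this limit, among them Tnfsf10, Eda, Tnfsf18, Fas, Tnfrsf10b and Tnfrsf19. Tnfsf13 itself had 17.6, 11.9 and 10.4 CPM in control and 9.72, 10.5 and 8.29 in resveratrol. Control 1 was the highest library and the groups overlapped (log2 fold change -0.48 ± 0.21, edgeR adjusted p = 0.265). That difference became -0.23 without control 1 and -0.24 in the Oct libraries.

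Tnf and Ltb lie next to each other, with Lta beside them, in the major histocompatibility region. TNF is the founding cytokine of the family and lymphotoxin beta anchors lymphotoxin alpha in the membrane. Their RefSeq promoters (GRCr8, 250 bases before to 50 after the start) are shown because these neighbours had similar log2 fold changes, with capitals for the matches to 4 searched motifs. GRCr8 is not the build named for the counts, mRatBN7.2, and no coordinate of the counts was used.
Ltb, chr20:3634005-3634304, minus strand: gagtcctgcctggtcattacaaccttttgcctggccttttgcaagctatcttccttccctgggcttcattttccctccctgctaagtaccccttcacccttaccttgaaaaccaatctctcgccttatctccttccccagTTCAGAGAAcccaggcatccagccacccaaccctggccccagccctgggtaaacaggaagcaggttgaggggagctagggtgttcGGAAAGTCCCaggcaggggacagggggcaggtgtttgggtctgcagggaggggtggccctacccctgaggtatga
Tnf, chr20:3626435-3626734, plus strand: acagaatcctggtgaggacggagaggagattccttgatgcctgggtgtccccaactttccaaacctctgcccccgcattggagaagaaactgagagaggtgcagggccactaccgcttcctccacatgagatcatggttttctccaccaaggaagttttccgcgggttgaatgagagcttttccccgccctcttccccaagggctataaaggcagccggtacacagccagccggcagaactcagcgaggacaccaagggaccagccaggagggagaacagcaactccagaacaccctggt
The motifs, read on both strands, were 2 forms of the NF-kB site (GGG and TTTCC with any 2 bases between them, and GGG and TCCC with any 3), the core of the interferon-stimulated response element (TTTC and TTTC with any 2 between) and the interferon gamma activated site (TTC and GAA with any 3 between). In the Ltb window the capitals mark an interferon gamma activated site match at -110 to -102 and a match to the first NF-kB form on the reverse strand at -25 to -16, counting the base before the start as -1. The Tnf window held no match, which says only that these letters are not in it. Among 33469 rat promoters of this length, the 4 motifs in this order matched 1.53%, 5.57%, 3.92% and 8.87%. The 44 genes had 34 listed promoters, 2 of them for Tnfrsf22, and some genes had none. Of the 34 promoters, 3, 6, 4 and 3 held a match, in the same order of motifs. In Cd70 matches to both NF-kB forms overlapped.

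Ltb had 3.68, 2.59 and 2.49 CPM in control and 1.39, 1.91 and 1.74 in resveratrol. All control libraries were above all resveratrol libraries, with control 1 the highest. Ltb had a log2 fold change of -0.80 ± 0.25 (edgeR adjusted p = 0.176, DESeq2 adjusted p = 0.0919), and -0.48 in the Oct libraries. Tnf had 1.72, 1.28 and 1.58 CPM in control and 0.983, 0.805 and 0.869 in resveratrol, again with no overlap. Its mean was 1.53 ± 0.228 CPM in control and 0.886 ± 0.0901 in resveratrol (SD, n = 3 each). For Tnf the fitted log2 difference was -0.78 ± 0.26 (edgeR adjusted p = 0.195, DESeq2 adjusted p = 0.168). Of the 6 edgeR fits that each left out 1 library, the unadjusted p stayed under 0.05 in 4 for Ltb and 2 for Tnf. Lta, whose product pairs with lymphotoxin beta, had 9 counts over all libraries and was at 0 in 3 of them.

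Tnfsf11 encodes RANKL, the ligand that drives osteoclast formation and also acts on dendritic cells. It had 0.920, 5.71 and 1.29 CPM in control and 0.437, 0.349 and 1.03 in resveratrol. Control 2 stood far above all other libraries, and the groups overlapped. The log2 fold change of -2.12 ± 0.71 (edgeR adjusted p = 0.210) became -0.86 without control 2. Tnfsf10 encodes TRAIL, a ligand that can induce apoptosis, and showed a like pattern with another library. Its CPM was 2.64, 0.327 and 0.911 in control and 0.191, 0.644 and 0.369 in resveratrol, and its log2 fold change of -1.68 ± 0.74 (edgeR adjusted p = 0.292) became -0.62 without control 1. Eda had 18.6, 18.9 and 19.3 CPM in control and 23.3, 18.6 and 21.3 in resveratrol (log2 fold change 0.16 ± 0.11, edgeR adjusted p = 0.465). Its groups overlapped.

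The remaining tested ligands are co-stimulators of T cells. Tnfsf9 was at 1.48 ± 0.417 CPM in control and 1.02 ± 0.0863 in resveratrol (SD, n = 3 each), with no overlap between groups. Tnfsf18, the ligand of GITR, was at 0.355 ± 0.229 CPM in control and 0.673 ± 0.545 in resveratrol, with overlap. Of the 9 ligands below the count filter, Tnfsf13b, which encodes the B cell survival factor BAFF, had 6, 1 and 9 counts in control and 1, 6 and 6 in resveratrol. Tnfsf4 had 1 count in each control library and 3, 4 and 2 in resveratrol. Cd40lg, Cd70, Faslg, Lta, Tnfsf14, Tnfsf15 and Tnfsf8 were the others, and the 9 had 3 to 39 counts each over the 6 libraries. Of these ligands 5 were at 0 in at least 1 library, where a count of 0 allows up to 3 counts, or 0.0790 to 0.0862 CPM, by counting error. The 9 were not tested with edgeR, and no difference is read from their counts.

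Among receptors the largest fitted difference was that of Tnfrsf14, which encodes HVEM, the receptor for LIGHT and a partner of the inhibitory lymphocyte receptor BTLA. Its CPM was 2.24, 1.12 and 0.590 in control and 0.273, 0.215 and 0.290 in resveratrol, from 78, 41 and 22 counts against 10, 8 and 11. The control libraries were spread widely, the resveratrol libraries lay close together, and the groups did not overlap. Its log2 fold change was -2.33 ± 0.50, with an edgeR adjusted p of 0.125 and a DESeq2 adjusted p of 0.00849. Without control 1 edgeR's log2 fold change was -1.70, and in the Oct libraries alone it was -1.74. DESeq2 did not call it without control 1 (adjusted p = 0.140), control 2 (0.0517) or resveratrol 2 (0.0643), nor in the Oct libraries alone (0.313). Tnfsf14, the gene of the ligand LIGHT, had 13 counts in all.

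The TNF receptors differed in their values. Tnfrsf1b, the TRAF-binding receptor of leukocytes and endothelium, had 24.4, 21.6 and 16.7 CPM in control and 14.1, 14.5 and 16.3 in resveratrol. Control 3 and resveratrol 3 were close, yet no libraries crossed. Tnfrsf1b had a log2 fold change of -0.48 ± 0.15 (edgeR adjusted p = 0.172, DESeq2 adjusted p = 0.0863), and -0.31 in the Oct libraries. Tnfrsf1a, which most cell types express, had 179, 199 and 192 CPM in control and 209, 197 and 233 in resveratrol, with overlap (log2 fold change 0.16 ± 0.09, edgeR adjusted p = 0.358). The difference between the 2 receptors' fold changes was not tested. Tnfrsf1b neighbours Tnfrsf8 and both overlap an annotated locus in GRCr8, so its counts carry the same strand limit. Its promoter is shown because a match lies at the start of transcription.
Tnfrsf1b, chr5:162387362-162387661, minus strand: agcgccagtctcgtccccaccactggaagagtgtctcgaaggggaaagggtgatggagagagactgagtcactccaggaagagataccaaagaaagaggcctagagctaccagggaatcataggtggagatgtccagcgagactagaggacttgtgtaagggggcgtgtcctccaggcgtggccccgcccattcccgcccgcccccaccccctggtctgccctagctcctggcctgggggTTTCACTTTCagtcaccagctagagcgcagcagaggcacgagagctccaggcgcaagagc
The capitals mark a match to the interferon-stimulated response element core at -10 to -1. Tnfsf12, Tnfrsf14, Tnfrsf18, Ngfr and Cd40 had no promoter in the table used.

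Cd40, the receptor through which T cells license antigen-presenting cells, had 3.19, 3.05 and 3.14 CPM in control and 1.80, 2.201 and 2.16 in resveratrol. Both groups were tight and did not overlap, with means of 3.12 ± 0.0723 and 2.05 ± 0.219 CPM (SD, n = 3 each). Cd40 had a log2 fold change of -0.60 ± 0.19 (edgeR adjusted p = 0.179, DESeq2 adjusted p = 0.116), and the unadjusted edgeR p stayed under 0.05 in 5 of the 6 fits without 1 library. Its ligand gene Cd40lg had 9 counts over all libraries.

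Tnfrsf18 went the other way. It encodes GITR, a co-stimulatory receptor abundant on regulatory T cells and also found in skin and other epithelia. Its CPM was 3.97, 4.05 and 3.62 in control and 10.9, 4.89 and 6.90 in resveratrol. All resveratrol libraries were above all controls, and resveratrol 1 was the highest. The log2 fold change of 0.96 ± 0.28 had an edgeR adjusted p of 0.160 and a DESeq2 adjusted p of 0.0289. edgeR's log2 fold change was 0.61 without resveratrol 1 and 0.62 for the Oct libraries by themselves. DESeq2 did not call it without control 1 (adjusted p = 0.0962), control 2 (0.119), control 3 (0.110), resveratrol 1 (0.173) or resveratrol 3 (0.0763), nor in the Oct libraries alone (0.338). Its chromosomal neighbour Tnfrsf4, another T cell co-stimulatory receptor, had 0.460, 0.544 and 0.402 CPM in control and 0.246, 0.0537 and 0.606 in resveratrol, with overlap (log2 fold change -0.63 ± 0.66, edgeR adjusted p = 0.651). Leaving out resveratrol 2 gave -0.13 for Tnfrsf4, and leaving out resveratrol 3 gave -1.62.

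Ngfr, which binds neurotrophins on neurons, Schwann cells and epithelial progenitors, had 16.1, 18.2 and 29.4 CPM in control and 56.6, 26.9 and 34.5 in resveratrol. Resveratrol 1 was the highest library, and control 3 lay above resveratrol 2, so the groups overlapped. The log2 fold change of 0.89 ± 0.31 (edgeR adjusted p = 0.204, DESeq2 adjusted p = 0.0523) became 0.54 once resveratrol 1 was left out and 0.37 for the Oct libraries by themselves. Schwann cell markers summed to 39.2 to 56.6 CPM in control and 46.3 to 49.7 in resveratrol, with 0 of 5 genes at an unadjusted p under 0.05. Mbp held most of this sum, with 33.3 to 41.4 CPM in control and 39.2 to 43.5 in resveratrol. Of the epithelial markers, Tp63, a transcription factor of basal and progenitor cells, had 204, 218 and 200 CPM in control and 359, 224 and 238 in resveratrol, with resveratrol 1 again the highest and no overlap (log2 fold change 0.40 ± 0.17, edgeR adjusted p = 0.266). The other epithelial markers, Krt12, Krt5, Krt14, Pax6 and Cdh1, had log2 fold changes from -0.20 for Krt14 to 0.06 for Pax6, with overlap in each. The part of Schwann cells or epithelium in the Ngfr values was not tested.

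**Figure D4:**
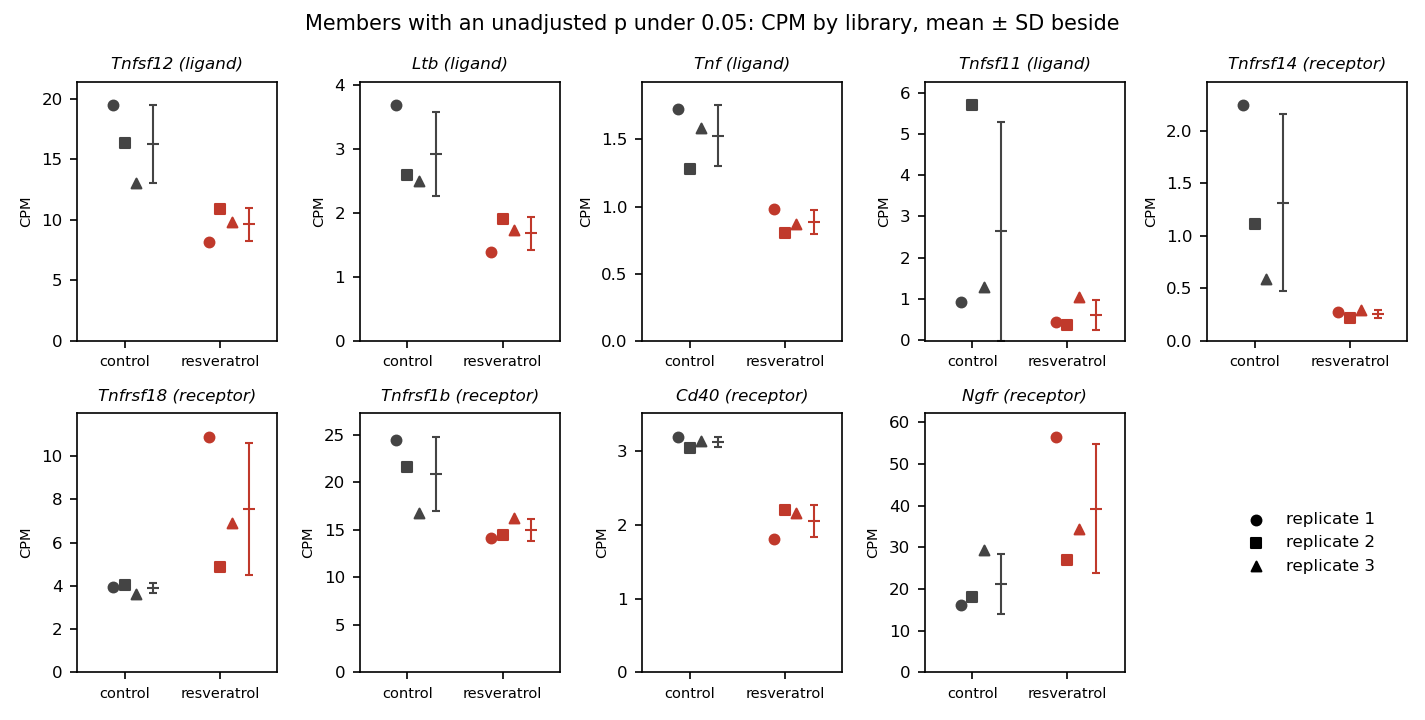
CPM by library of the 9 family genes with an unadjusted p under 0.05, with replicates 1 to 3 as circle, square and triangle and the mean ± SD of 3 libraries beside the points. Tnfsf12, Ltb, Tnf, Tnfrsf14, Tnfrsf1b and Cd40 have all resveratrol libraries below all controls, Tnfrsf18 has them all above, and Tnfsf11 and Ngfr overlap.

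The abundant receptors showed small differences. Ltbr had 125, 130 and 123 CPM in control and 146, 126 and 130 in resveratrol (log2 fold change 0.09 ± 0.08, edgeR adjusted p = 0.586). Tnfrsf21 had 176, 187 and 222 CPM in control and 251, 197 and 217 in resveratrol (log2 fold change 0.18 ± 0.12, edgeR adjusted p = 0.447). In both genes resveratrol 1 was the highest library and the groups overlapped. Tnfrsf12a varied more between libraries than between groups, with 15.8, 38.1 and 32.01 CPM in control and 17.2, 32.3 and 37.2 in resveratrol, and both replicate 1 libraries, those with the Sep ending, were lowest (log2 fold change 0.01 ± 0.39, edgeR adjusted p = 0.9905). Its sign turned with the library left out. Fas, the death receptor for Fas ligand, had 7.01, 6.39 and 6.65 CPM in control and 8.002, 7.01 and 7.06 in resveratrol, with control 1 and resveratrol 2 nearly equal (log2 fold change 0.14 ± 0.13, edgeR adjusted p = 0.599).

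In the RANKL group, Tnfrsf11a, the signaling receptor RANK, had 7.04, 6.15 and 5.82 CPM in control and 6.14, 4.32 and 3.92 in resveratrol (log2 fold change -0.40 ± 0.20, edgeR adjusted p = 0.331). Leaving out resveratrol 1 gave -0.61, and leaving out resveratrol 3 gave -0.27. The highest resveratrol library, replicate 1, lay within the control range. Tnfrsf11b, which encodes the soluble decoy osteoprotegerin, had 2.64, 5.55 and 7.18 CPM in control and 4.21, 4.21 and 6.69 in resveratrol (log2 fold change -0.03 ± 0.38, edgeR adjusted p = 0.977). Its groups overlapped fully and its sign turned with the processing. Edar, the ectodysplasin receptor, had 1.44, 1.58 and 2.65 CPM in control and 1.45, 1.13 and 0.974 in resveratrol, where control 1 was just below resveratrol 1 (log2 fold change -0.68 ± 0.31, edgeR adjusted p = 0.314). Leaving out control 3 gave -0.35, and the Oct libraries gave -1.01.

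Of the other tested receptors, Tnfrsf10b, the death receptor for TRAIL, was at 4.26 ± 0.147 CPM in control and 3.46 ± 0.637 in resveratrol (SD, n = 3 each), with no overlap between groups and an edgeR adjusted p of 0.437. Tnfrsf19, Tnfrsf9, Tnfrsf25, Tnfrsf8, Eda2r, Tnfrsf26 and Tnfrsf22 overlapped between groups, with log2 fold changes from -0.66 for Tnfrsf8 to -0.02 for Tnfrsf26. Tnfrsf26 and Tnfrsf22 are chromosomal neighbours. The 4 receptors below the count filter, Cd27, Tnfrsf13b, Tnfrsf13c and Tnfrsf17, had 1 to 32 counts each over all libraries. Tnfrsf13b, Tnfrsf13c and Tnfrsf17 encode the receptors through which B cells and plasma cells receive APRIL and BAFF, and Tnfrsf13c had 1 count in all.

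Set side by side, ligands and their receptors had unlike log2 fold changes in some pairs and shared a sign in others. No difference within a pair was tested. Tnfsf12 had a log2 fold change of -0.76 and its receptor Tnfrsf12a 0.01. Ltb had -0.80 and Ltbr 0.09. Tnf had -0.78, Tnfrsf1b -0.48 and Tnfrsf1a 0.16. Eda had 0.16 and Edar -0.68. Signs were shared by Tnfsf9 (-0.54) and Tnfrsf9 (-0.51), and by Tnfsf18 (0.92) and Tnfrsf18 (0.96). They were also shared by Tnfsf11 (-2.12) and Tnfrsf11a (-0.40), and by Tnfsf10 (-1.68) and Tnfrsf10b (-0.30). Summed over the family, ligand FPKM was 33.6, 31.3 and 24.1 in control and 17.8, 20.5 and 19.9 in resveratrol, with no overlap. Summed receptor FPKM was 224, 262 and 258 in control and 271, 256 and 292 in resveratrol, with overlap. Because 2 genes hold most of the ligand sum, it largely reflects Tnfsf12 and Tnfsf13. In control 2 Tnfsf11 also added 5.94 FPKM, against 0.953 in control 1 and 1.34 in control 3.

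Signaling downstream of the receptors was described with 35 genes of adaptors, kinases and ubiquitin enzymes, all of them tested. None passed an adjusted p of 0.05 by edgeR. At an unadjusted p under 0.05 there were 2 with lower values, Traf1 and Birc3, and 4 with higher values, Traf3, Traf7, Ripk1 and Chuk, beside 11.7% lower and 7.84% higher among all genes tested, and the median log2 fold change was 0.08. DESeq2 called 1 lower, Traf1, and 1 higher, Chuk, beside 4.64% and 2.23% of all genes. Traf1, an adaptor that is itself induced by NF-kB, had 5.61, 5.39 and 4.69 CPM in control and 3.03, 2.90 and 3.77 in resveratrol. All controls were above all resveratrol libraries (log2 fold change -0.69 ± 0.18, edgeR adjusted p = 0.135, DESeq2 adjusted p = 0.0301). Chuk, an NF-kB activating kinase, had 22.7, 24.7 and 26.6 CPM in control and 35.4, 31.4 and 29.6 in resveratrol (log2 fold change 0.38 ± 0.11, edgeR adjusted p = 0.145, DESeq2 adjusted p = 0.0378). Traf3, which restrains alternative NF-kB signaling, had 35.8, 35.4 and 37.1 CPM in control and 42.2, 41.6 and 47.9 in resveratrol (log2 fold change 0.28 ± 0.09, edgeR adjusted p = 0.158). In Chuk and Traf3 all resveratrol libraries were above all controls. Traf7 and Tnip1, the abundant members of the list, had log2 fold changes of 0.17 ± 0.07 (edgeR adjusted p = 0.238) and -0.19 ± 0.08 (edgeR adjusted p = 0.255).

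Proteases that release membrane ligands and receptors made a list of 7 genes, all tested, with 0 lower and 1 higher at an unadjusted p under 0.05 (11.7% and 7.84% of all genes) and a median log2 fold change of 0.03. The higher gene was Adam17, the protease that sheds TNF, with 115, 107 and 100 CPM in control and 134, 121 and 120 in resveratrol. The groups did not overlap (log2 fold change 0.22 ± 0.08, edgeR adjusted p = 0.231). Furin and Adam10, other abundant proteases, had log2 fold changes of -0.09 ± 0.09 and -0.03 ± 0.06, and Rhbdf2, a cofactor of Adam17, had 0.16 ± 0.09, with overlap in each. Of 20 genes known to be induced by TNF, 18 were tested, and 3 had lower and 1 higher values at an unadjusted p under 0.05, beside 11.7% and 7.84% of all genes, with a median log2 fold change of -0.14. The lower ones were Traf1, Birc3 and Tnfaip6, and the higher one was Icam1. Traf1 and Birc3 are also the 2 lower genes of the adaptor list, so these counts share genes. Icam1 had 56.1, 70.4 and 66.0 CPM in control and 119, 62.8 and 95.5 in resveratrol. Its groups overlapped (log2 fold change 0.52 ± 0.22, edgeR adjusted p = 0.247). Birc3, an inhibitor of apoptosis recruited to TNF receptors, had 30.9, 30.8 and 44.3 CPM in control and 25.6, 27.3 and 21.7 in resveratrol, with no overlap (log2 fold change -0.51 ± 0.16, edgeR adjusted p = 0.178). Tnfaip6, a secreted hyaluronan-binding protein, had 12.1, 14.1 and 12.1 CPM in control and 11.0, 7.22 and 9.35 in resveratrol (edgeR adjusted p = 0.208). Sod2 and Vcam1, abundant targets, had log2 fold changes of 0.07 ± 0.23 and 0.14 ± 0.24, and their groups overlapped.

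Markers of macrophages, dendritic cells and T cells were mostly lower beside the lower ligands and receptors. All marker lists were chosen with earlier results of these data known. In whole corneas, fewer cells of a type and less RNA per cell cannot be told apart. Macrophage markers summed to 316 to 456 CPM in control and 207 to 304 in resveratrol, with 8 of 10 genes lower at an unadjusted p under 0.05, beside 11.7% of all genes. The other macrophage markers, Cd163 and Mrc1, had log2 fold changes of 0.11 each, with overlap. Dendritic cell markers summed to 21.0 to 32.02 and 8.88 to 13.8 CPM (6 of 7 lower), and T cell markers to 32.7 to 64.9 and 18.1 to 28.9 CPM (8 of 9 tested lower, with Cd3d below the filter). Cd4 held most of the T cell sum, with 20.9 to 41.0 CPM in control and 13.1 to 20.1 in resveratrol. Cd3e had 0.804 to 2.73 CPM in control and 0.218 to 0.685 in resveratrol. The sum is thus mainly a measure of Cd4, and which cells carried the Cd4 RNA was not tested. Cd8a and Cd3g overlapped between groups. In each of these 3 lists the sums did not overlap between groups. Control 1 had the highest sum and resveratrol 1 the lowest, as for the summed ligands. Neutrophil markers summed to 225 to 593 and 168 to 207 CPM (2 of 4 lower, S100a8 and S100a9, Mpo having no row). Those 2 held most of the sum, and Csf3r and Cxcr2 had log2 fold changes of -0.53 and -0.25, with overlap. Blood endothelial markers summed to 328 to 481 and 204 to 278 CPM (5 of 6 lower). The part of these cell types in the values of Tnfsf12, Ltb, Tnf, Tnfrsf14, Tnfrsf1b and Cd40 was not tested.

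For the lists that follow, lower again means an unadjusted p under 0.05, beside 11.7% of all genes tested. NK cell markers summed to 1.69 to 5.69 CPM in control and 0.519 to 2.66 in resveratrol, with overlap. Of 2 tested genes 1 was lower, and Ncr1, Prf1 and Gzmb were below the filter. Corneal epithelial markers were at 71572 to 80598 CPM in control and 71420 to 80808 in resveratrol, with 0 of 6 lower, so the labelled tissue's defining genes were present in every library. Keratocyte markers summed to 9859 to 13727 and 6955 to 9546 CPM, without overlap, and 2 of 6, Col1a1 and Thy1, were lower. All 6 had fitted log2 fold changes below 0, beside 51.2% of all tested genes. Col1a1 alone had 5030 to 9242 CPM in control and 2693 to 4540 in resveratrol. Kera, Lum, Dcn and Pdgfra overlapped between groups. Lymphatic endothelial markers summed to 133 to 188 and 134 to 193 CPM (0 of 3 tested lower, Prox1 below the filter) and corneal endothelial markers to 799 to 973 and 809 to 1381 CPM (1 of 4 lower), both with overlap. Pdpn held most of the lymphatic sum, with 113 to 159 CPM in control and 120 to 171 in resveratrol. Log2 fold changes were 0.15 for Pdpn, -0.29 for Lyve1 and -0.36 for Flt4, with overlap in each.

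**Figure D5:**
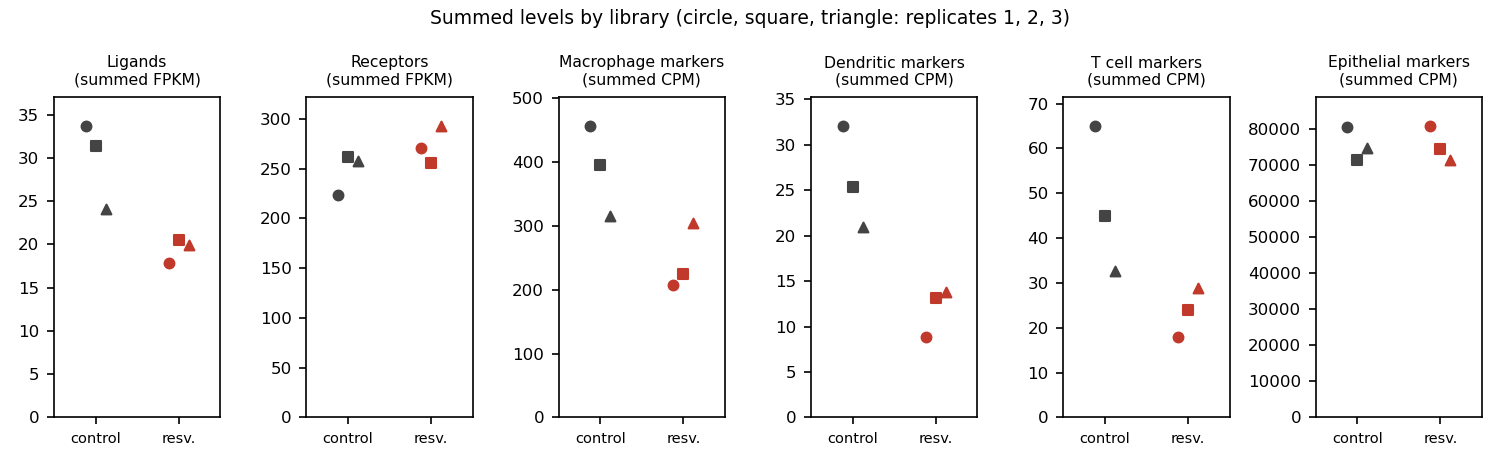
Summed FPKM of ligands and of receptors and summed CPM of macrophage, dendritic cell, T cell and corneal epithelial markers in each library, with replicates 1 to 3 as circle, square and triangle. Ligands and the leukocyte lists lie lower in all 3 resveratrol libraries, while receptors and epithelial markers overlap between groups. Most of the T cell sum is Cd4.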

How the data were processed

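RNA from corneas was sequenced as 150 bp paired reads, per the labels' protocols. The authors deposited raw gene counts and FPKM for 17771 genes. The submitters' processing notes name mRatBN7.2, R 3.2.0 and DESeq2 without roles; the sources used here do not give the aligner, counter, annotation or strand setting. A tab missing from the count header was resolved by column names, and the single-library FPKM files equalled the FPKM table in 6 of 6 libraries.

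Here counts were filtered with filterByExpr (14213 genes left, the others holding 0.0237% of counts), scaled by TMM and tested with edgeR 4.0.16 (quasi-likelihood, resveratrol against control, Benjamini-Hochberg over all genes, threshold 0.05) in R 4.3.3. CPM uses TMM-scaled library sizes. Standard errors are limma 3.58.1's on log2 CPM (prior count 2). DESeq2 1.42.0, other scalings, filters and models, log2(FPKM + 1) and log2(FPKM + 0.1), the Oct libraries alone (both replicate 1 libraries carry the ending Sep in their descriptions and the other 4 carry Oct, without explanation) and leaving out each library were alternatives. DESeq2 without each library and on the Oct libraries was added after seeing the data. The fit was run on simulated counts as a check of the code, which says nothing about the calls in these data. An exact permutation test of 3 against 3 libraries cannot go below 0.1, so none was made.

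Members, gene lists and markers were chosen with earlier results of these data known. The result of 1 marker list is not reported here. Values in every library were given for the 5 ligands and 8 receptors with the smallest p, the 3 ligands and 5 receptors with the highest FPKM and a fixed set of roles. From each pathway list, the 3 genes with the smallest p were to be named, and the 2 with the highest FPKM. Promoters and gene neighbours are from RefSeq (GRCr8).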

Additional observations from a re-analysis of the deposited data

How the results depend on the processing

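No gene passed edgeR's adjusted threshold under any scaling, filter, voom, covariate or FPKM setting tried, whereas DESeq2 called 1007 genes, 406 in the Oct libraries and, without control 1, 2 or 3 or resveratrol 1, 2 or 3 in turn, 623, 390, 1027, 530, 642 and 817. edgeR called 0 to 21 genes without each library, 21 of them without control 3 and 1 without resveratrol 2. DESeq2 called 1 ligand and 2 receptors, and 0 to 2 ligands and 0 to 3 receptors without each library. Ligands lower at an unadjusted p under 0.05 numbered 4, 2 in the Oct libraries and 2 to 4 without each library. Lower receptors numbered 3, and 2 to 3 without each library. Higher receptors numbered 2, 1 in the Oct libraries and 1 to 2 without each library. The ligand median log2 fold change was -0.76, -0.48 in the Oct libraries, -0.38 on log2(FPKM + 1) and -0.76 to -0.60 without each library. The receptor median of -0.28 was -0.032 with at least 1 CPM required in 3 libraries (fewer genes), -0.17 in the Oct libraries, -0.042 on log2(FPKM + 1), -0.18 on log2(FPKM + 0.1), which compress low values, and -0.30 to -0.13 without each library. Tnfrsf12a turned sign in the Oct libraries (-0.012) and lay between -0.28 and 0.28 without each library. Tnfrsf11b turned with voom (0.045), the replicate block (0.044), the ending as covariate (0.059), log2(FPKM + 1) (0.024) and log2(FPKM + 0.1) (0.063), and lay between -0.33 and 0.30 without each library. Except where an alternative's construction is named, the cause was not tested. Same-numbered libraries did not deviate together (correlations -0.0044, -0.0123 and -0.0225), so the numbers were not taken as pairs. The replicate block called 0 genes, ligands and receptors, with 4 ligands and 4 receptors lower and 2 receptors higher at an unadjusted p under 0.05, and medians of -0.75 and -0.28. Depth limits the 13 genes of the family with 1 to 39 counts in all, and Tnfrsf14 and Tnf rest on few counts.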
